A study of Mus musculus with 13 samples.

Results

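The 38 genes described here encode subunits of receptors for the neurotransmitters glutamate and GABA, and were taken by symbol from a fixed list. All 38 were found among the 21938 protein-coding genes of the annotation used here (GENCODE M21, mm10, without mitochondrial genes). They comprised 3 AMPA receptor genes, 5 kainate receptor genes, 7 NMDA receptor genes, 1 delta receptor gene, 7 metabotropic glutamate receptor genes, 10 GABA-A receptor genes, 3 GABA-A rho genes and 2 GABA-B receptor genes. The peaks of H3K4me3 and H3K27me3 within 2 kb of any of their transcription start sites (TSSs) were followed through neural stem cells (NSCs), oligodendrocyte precursor cells (OPCs) and newly formed oligodendrocytes (NFOs), together with the OLIG2 peaks of OPCs and NFOs in each gene and 5 kb upstream.

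The NSCs were bought cultures from E14.5 (embryonic) mouse cortex, kept proliferating in EGF and FGF. Their strain label reads C57BL/6, whereas their growth protocol and the study's methods give CD-1. OPCs and NFOs were purified by immunopanning from C57BL/6 brains at postnatal day 7, and all cells were labelled untreated. Each of the 6 histone libraries and 2 OLIG2 libraries was the only one of its kind, so no difference between stages could be set against a replicate spread, and no test was possible. For the histone libraries the antibody label names the other mark than the sample title, and the titles were followed. Under this reading more genes had an H3K4me3 peak than an H3K27me3 peak at their TSSs at all 3 stages.

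Glutamate opens AMPA, kainate and NMDA receptors, which are cation channels, and acts on metabotropic receptors that signal through G proteins. GABA opens the chloride channels of the GABA-A family and acts on the G protein-coupled GABA-B receptor. OPCs carry many of these receptors and receive synapses from neurons, and this input is lost as they become oligodendrocytes. H3K4me3 marks the promoters of active or poised genes, H3K27me3 is laid down by Polycomb repressive complex 2 at silenced genes, and promoters that hold both are called bivalent. OLIG2 is a basic helix-loop-helix factor of the oligodendrocyte lineage that binds E-boxes, which read CANNTG.

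Peaks were used past the thresholds of the study's methods, a false discovery rate (FDR) under 0.05 and a fold enrichment over control above 3.5 for histone marks or above 5 for OLIG2. These left from 8589 to 26385 peaks per histone list, 6566 OLIG2 peaks in OPCs and 14076 in NFOs. Read depths were unknown, so fold enrichments and widths were compared within a list and are given side by side between lists. The stage markers were checked in the same lists. In the order NSCs, OPCs and NFOs, H3K4me3 peaks stood at 8, 8 and 6 of 8 NSC markers, at 7, 7 and 6 of 8 OPC markers and at 5, 5 and 2 of 10 NFO markers, so these counts did not tell the stages apart, and Mog and Mag had no called peak of either mark at any stage. In the same order, H3K4me3 peaks were called at 6, 7 and 5 of 8 neuron markers, 5, 3 and 2 of 8 astrocyte markers, 0, 1 and 0 of 8 microglia markers and 2, 2 and 2 of 8 endothelial markers. The part of other cells in the peaks of receptor genes was not tested.

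An H3K4me3 peak was called at 28 of the 38 receptor genes in NSCs, 30 in OPCs and 21 in NFOs. Among all protein-coding genes the corresponding shares by stage were 62.7%, 60.5% and 38.6%, so the decrease from OPCs to NFOs was a feature of the whole NFO list. H3K27me3 was called at 9 receptor genes in NSCs, where the share of all genes was 9.5%, at 12 in OPCs, where it was 12.8%, and at 5 in NFOs, where it was 7.67%. The receptor genes had a median length of 130 kb against 17.4 kb for all genes. Among the 2492 protein-coding genes over 100 kb, H3K4me3 was called at 85.4%, 85.8% and 60.8% and H3K27me3 at 15.4%, 22% and 13.6% in NSCs, OPCs and NFOs.

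Each gene was put in 1 of 5 states per stage. It was K4 only or K27 only where just that kind of peak lay within 2 kb of a TSS, bivalent where the peaks of both marks overlapped in a merged domain and nothing else was present, mixed for any other combination, and none without a called peak. In NSCs 21 receptor genes were K4 only, 3 bivalent, 4 mixed, 2 K27 only and 8 without a peak, against 55.7%, 3.52%, 3.79%, 2.32% and 34.7% of all genes. In OPCs the counts were 21 K4 only, 3 bivalent, 6 mixed, 3 K27 only and 5 none, and the shares of all genes were 51.8%, 2.62%, 6.32%, 3.91% and 35.4%. In NFOs 18 were K4 only, 3 mixed, 2 K27 only and 15 none, and 0 were bivalent, against 35.2%, 2.42%, 3.87% and 57.2% and, for bivalent genes, 1.39%. The state differed between NSCs and OPCs at 17 receptor genes, where 18% of all genes differed, and between OPCs and NFOs at 15, where 30.1% of all genes differed. For states, their changes and gained or lost peaks, the shares among genes over 100 kb were not taken. The part of gene length in these counts was not tested.

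**Figure D1:**
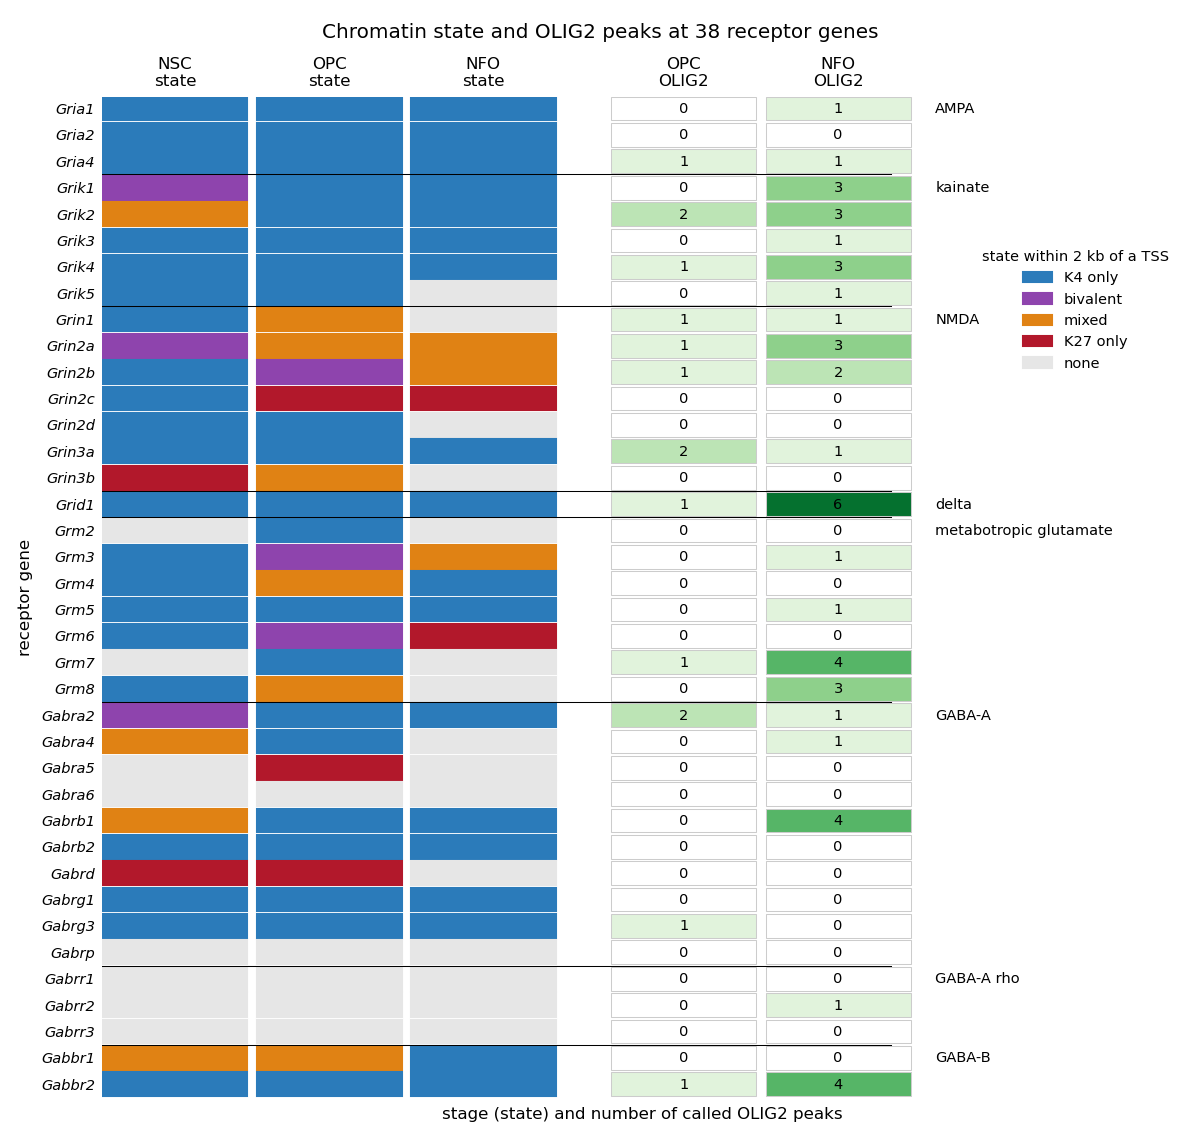
Rows are the 38 receptor genes by family. The left 3 columns give the state within 2 kb of a TSS in NSCs, OPCs and NFOs by colour, and the right 2 columns the number of called OLIG2 peaks in the gene and 5 kb upstream. The 3 AMPA receptor genes are K4 only at every stage, the NMDA and metabotropic genes hold most of the H3K27me3 of OPCs, and the 3 GABA-A rho genes have no histone peak.

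Of the 38 genes, 12 were K4 only at all 3 stages, as were 29.9% of all genes. They were the AMPA receptor genes Gria1, Gria2 and Gria4, whose products carry most fast excitatory transmission, the kainate receptor genes Grik3 and Grik4, the NMDA receptor gene Grin3a, the delta receptor gene Grid1, the metabotropic receptor gene Grm5, the GABA-A genes Gabrb2, Gabrg1 and Gabrg3, and the GABA-B gene Gabbr2. The fold enrichment of their strongest H3K4me3 peak ranged from 3.64 to 11.0 at the NSC stage, from 4.57 to 13.4 in OPCs and from 3.74 to 19.4 in NFOs, with medians of 7.88, 6.96 and 4.49. The medians of their widest peaks were 2281 bp, 2634 bp and 788 bp.

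Gria2, the subunit that makes AMPA receptors impermeable to calcium, had 1 H3K4me3 peak per stage, which measured 3756 bp and 10.2-fold in NSCs, 5326 bp with 8.20-fold in OPCs and 2134 bp with 4.94-fold in NFOs. Among the genes with an H3K4me3 peak in the same list, these widths stood at the percentiles 89.5, 99.4 and 97.1, so the Gria2 promoter was among the broadest in each. Grm5, the group I metabotropic receptor, took the other course. Its peak was 6201 bp wide in NSCs, at the percentile 99.0, but only 421 bp in OPCs and 246 bp in NFOs, at the percentiles 5.9 and 18.4. Grin3a, an NMDA subunit that lowers calcium entry, had H3K4me3 peaks of 2392 bp in NSCs and 3681 bp in OPCs, at the percentiles 57.5 and 97.0, and its widest peak in NFOs was 941 bp. Grik4, a high-affinity kainate subunit, had the strongest H3K4me3 peak of the receptor genes in OPCs and NFOs, with 13.4-fold and 19.4-fold. In NSCs its peak had 11.0-fold, below the 11.4-fold of Grik2 and the 11.3-fold of Gabra2. The Grik4 peaks of all 3 stages held a run of 16 A or 16 T. Those of Grik2 and Gabra2 in NSCs held one of 15. Such runs are described further below.

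**Figure D2:**
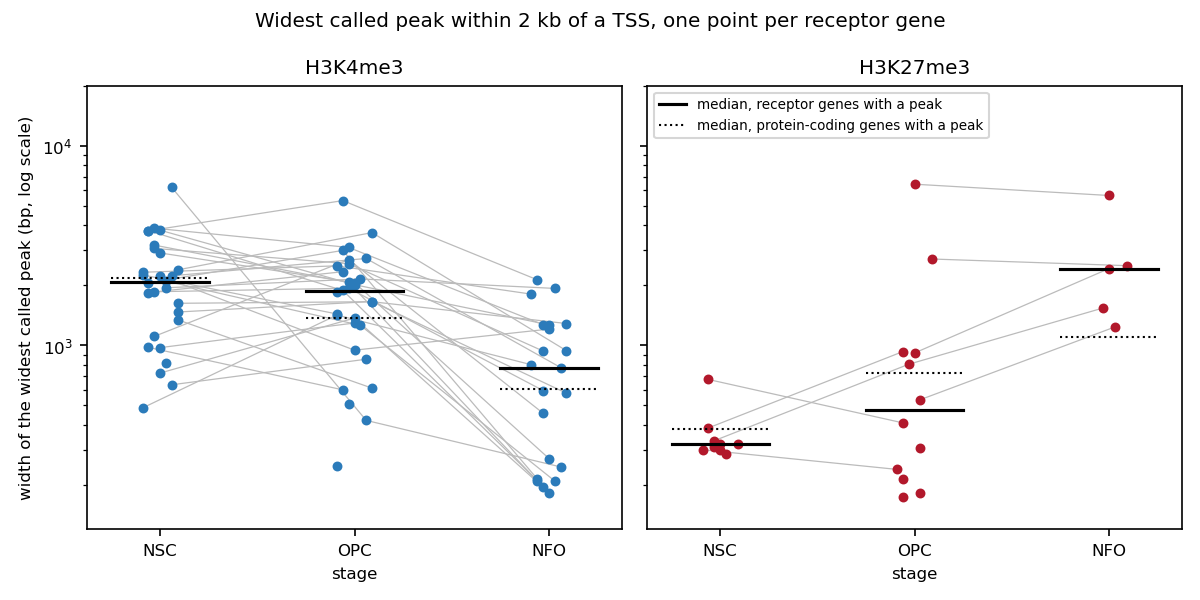
Each point is the widest called peak within 2 kb of a TSS of 1 receptor gene, in bp on a log scale, for H3K4me3 (left) and H3K27me3 (right) in NSCs, OPCs and NFOs, and grey lines join the same gene between adjoining stages. Solid bars are medians of the receptor genes with a peak and dotted bars those of all protein-coding genes with a peak; H3K27me3 peaks of receptor genes reach 675 bp in NSCs and 6436 bp in OPCs. NSC reads were single-end and OPC and NFO reads paired, so the widths are not on 1 scale.

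H3K27me3 in OPCs, called at 12.8% of all genes, was called at 5 of 7 NMDA receptor genes and 4 of 7 metabotropic receptor genes, and at 0 of 3 AMPA, 0 of 5 kainate and 0 of 3 rho genes. It was also called at 2 of 10 GABA-A genes and 1 of 2 GABA-B genes. In NSCs, where the share of all genes was 9.5%, it was called at 2 of 5 kainate, 2 of 7 NMDA, 4 of 10 GABA-A and 1 of 2 GABA-B genes, and at 0 of 7 metabotropic, 0 of 3 AMPA and 0 of 3 rho genes. In OPCs the calls at Grin1, Grin3b, Grm4 and Grm8 each rested on 1 peak, of from 174 bp to 239 bp. The families are small, and no difference between them was tested. A peak of H3K27me3 was gained from NSCs to OPCs at 8 receptor genes, where 8.08% of all genes gained one, and lost at 5, where 4.78% lost one. In the order NSCs, OPCs and NFOs, it was called at 1, 5 and 5 of 8 neuron markers, 0, 3 and 1 of 8 astrocyte markers, 1, 3 and 3 of 8 endothelial markers and 1, 0 and 0 of 8 microglia markers, and the part of such cells in the gain at receptor genes was not tested. From OPCs to NFOs 0 receptor genes gained one, where 1.37% of all genes did, and 7 lost one, where 6.5% did.

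The genes that gained H3K27me3 in OPCs included Grin2b, which encodes an NMDA subunit of the embryonic and early postnatal brain. Its promoter carried an H3K4me3 peak of 2234 bp and 7.20-fold in NSCs and no H3K27me3 peak there. In OPCs an H3K27me3 peak of 6436 bp and 3.88-fold (chr6:136168115-136174550) spanned the whole H3K4me3 peak of 947 bp, and the gene was bivalent. In NFOs it was mixed, with H3K27me3 peaks of 5649 bp and 1699 bp on either side of the outermost TSS, of which the wider covered the innermost of its 4 TSSs, and an H3K4me3 peak of 1208 bp and 3.67-fold. The domain of Grin2b was the widest H3K27me3 peak at any receptor gene in both OPCs and NFOs.

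Grm3, a group II metabotropic receptor that lowers cAMP, went from K4 only to bivalent to mixed as well. It was mixed in NFOs through a further H3K27me3 peak in the gene, of 437 bp and 3.71-fold, close to the threshold of 3.5. In OPCs one of 3.04-fold was listed in the gene, and with all listed peaks Grm3 was mixed there too. Its H3K4me3 peak measured 3784 bp and 7.14-fold in NSCs, 2017 bp and 5.94-fold in OPCs and 1269 bp and 8.60-fold in NFOs. The H3K27me3 peak that overlapped its upstream end was 917 bp wide and 5.48-fold in OPCs and 2431 bp and 4.45-fold in NFOs. Grm6, the group III receptor of retinal ON bipolar cells, passed from K4 only in NSCs through bivalent in OPCs to K27 only in NFOs. Its H3K4me3 peaks were weak, with 3.66-fold in NSCs and 3.65-fold in OPCs, close to the threshold of 3.5, and its H3K27me3 peaks were 2713 bp wide in OPCs and 2513 bp in NFOs. An H3K27me3 peak of 3.39-fold, just under the threshold, was also listed there in NSCs. The change from K4 only to bivalent was made by these 3 genes and by 1.28% of all genes. The later change of Grin2b and Grm3 from bivalent to mixed was made by 0.479%, and that of Grm6 to K27 only by 0.387%.

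Grin2c, the NMDA subunit of cerebellar granule cells, went from K4 only in NSCs, with 4.34-fold, to K27 only in OPCs and NFOs, with H3K27me3 peaks of 535 bp and 1238 bp; 0.77% of all genes made the change from NSCs to OPCs. A TSS of Fdxr lies within 2 kb of one of its TSSs. Grin2a, the NMDA subunit that comes up as synapses mature, was bivalent in NSCs, mixed in OPCs, a change made by 0.93% of all genes, and mixed in NFOs. Its H3K27me3 peak upstream of the TSS was 333 bp wide in NSCs, with 805 bp and 181 bp at the later stages, and a further H3K27me3 peak within the gene was 194 bp wide in OPCs and 1542 bp in NFOs. Grin1, the obligatory NMDA subunit, was K4 only in NSCs, mixed in OPCs through an H3K27me3 peak of 174 bp, and without a peak in NFOs. Grm8 and Grm4, both group III receptors, were K4 only in NSCs and mixed in OPCs, a change made by 3.86% of all genes, each with a narrow H3K27me3 peak of 213 bp and 182 bp. In NFOs Grm4 was K4 only again, with 3.53-fold, and Grm8 had no called peak. Its H3K4me3 peak in the NFO list had 3.25-fold and its H3K27me3 peak 3.48-fold, both just under the threshold. From mixed in OPCs, Gabbr1 and Grm4 went to K4 only, as 1.7% of all genes did, and Grin1, Grin3b and Grm8 to none, as 1.5% did.

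H3K27me3 was called in NSCs and not in OPCs at 5 GABA-A and kainate genes, which were K4 only in OPCs. Gabra2 and Grik1 had been bivalent, a change made by 0.98% of all genes, and Gabra4, Gabrb1 and Grik2 had been mixed, a change made by 2.04%. In the NSC H3K27me3 list, where the median width was 311 bp, the peaks they lost were narrow too. That of Gabra2 was 308 bp wide and 4.72-fold, that of Grik1 299 bp and 5.09-fold and that of Grik2 287 bp and 4.66-fold. Gabra4 and Gabrb1 are transcribed in opposite directions from neighbouring TSSs and shared the same NSC H3K27me3 peak, so they are 1 locus in this count, with a peak of 322 bp and 4.84-fold. No receptor gene had an H3K27me3 peak of 1 kb or more in NSCs, 2 did in OPCs and all 5 with a peak did in NFOs. Over all genes with a peak, the median of the widest also rose, with 381 bp, 728.5 bp and 1107 bp by stage. At receptor genes it was 322 bp, 472 bp and 2431 bp. NSC reads were single-end and OPC and NFO reads paired, so these widths are not on 1 scale.

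Among the other GABA-A genes, Gabrd, a subunit of extrasynaptic receptors, was K27 only in NSCs and OPCs and without a peak in NFOs. Its peak inside the gene was 386 bp wide with 5.59-fold in NSCs and 268 bp with 9.30-fold in OPCs, and the latter was the strongest H3K27me3 peak of any receptor gene. Gabra5, also extrasynaptic, had a single H3K27me3 peak of 305 bp and 3.60-fold in OPCs, and 1.85% of all genes went from none to K27 only in this way. The change of Gabrd and Gabra5 from K27 only to none in NFOs was made by 2.18% of all genes. Gabbr1, which binds GABA in the GABA-B receptor, was mixed in NSCs and OPCs and K4 only in NFOs, where its single H3K4me3 peak was 210 bp wide and 3.61-fold, next to 4 such peaks in NSCs. Grin3b, an NMDA subunit of motor neurons, was K27 only in NSCs and mixed in OPCs, which held for 0.0912% of all genes, with peaks of at most 300 bp, and had none in NFOs.

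H3K4me3 was gained from NSCs to OPCs at Grm2, Grm7 and Grin3b, and 1.67% of all genes gained it. Grm2, a group II receptor, had a peak of 511 bp and 4.38-fold in OPCs, and Grm7, a presynaptic group III receptor, one of 1845 bp and 4.99-fold. Both were without a peak in NSCs and again in NFOs, and 1.08% of all genes went from none to K4 only between NSCs and OPCs. H3K4me3 was lost in that step at Grin2c and at 3.92% of all genes. From OPCs to NFOs H3K4me3 was lost at 9 receptor genes and gained at 0, against 22.8% and 0.957% of all genes. The 5 that went from K4 only to none were Grm2, Grm7, Gabra4, Grik5 and Grin2d, a change made by 18.8% of all genes. Grik5, the other high-affinity kainate subunit, had H3K4me3 peaks of 2259 bp and 6.38-fold in NSCs and 1438 bp and 6.54-fold in OPCs, close to a TSS of Zfp574. Grin2d, an NMDA subunit of the embryonic brain, had 6.58-fold in NSCs and 7.51-fold in OPCs.

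Gabra6, Gabrp, Gabrr1, Gabrr2 and Gabrr3 had no called histone peak at any stage, as 30.7% of all genes did. Gabra6 is known from cerebellar granule cells, Gabrp from epithelia and the rho genes from the retina.

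An OLIG2 peak was called in or upstream of 12 receptor genes in OPCs and 21 in NFOs, and 11 had one in both. Among all protein-coding genes the shares were 15%, 25% and 8.27%. These genes are long, and among all genes over 100 kb the shares were 45.1%, 68.1% and 35.9%. Of the 21 receptor genes over 100 kb, 11 had a peak in OPCs, 17 in NFOs and 10 in both, and of the 17 shorter ones 1, 4 and 1. Per Mb of gene and upstream sequence, receptor genes held 1.54 OLIG2 peaks in OPCs and 4.71 in NFOs. All protein-coding genes held 3.48 and 6.90, and those over 100 kb 2.80 and 5.64. The number of receptor genes with a peak thus went with their length, and the density of peaks in them was below that of genes in general in these 2 libraries.

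**Figure D3:**
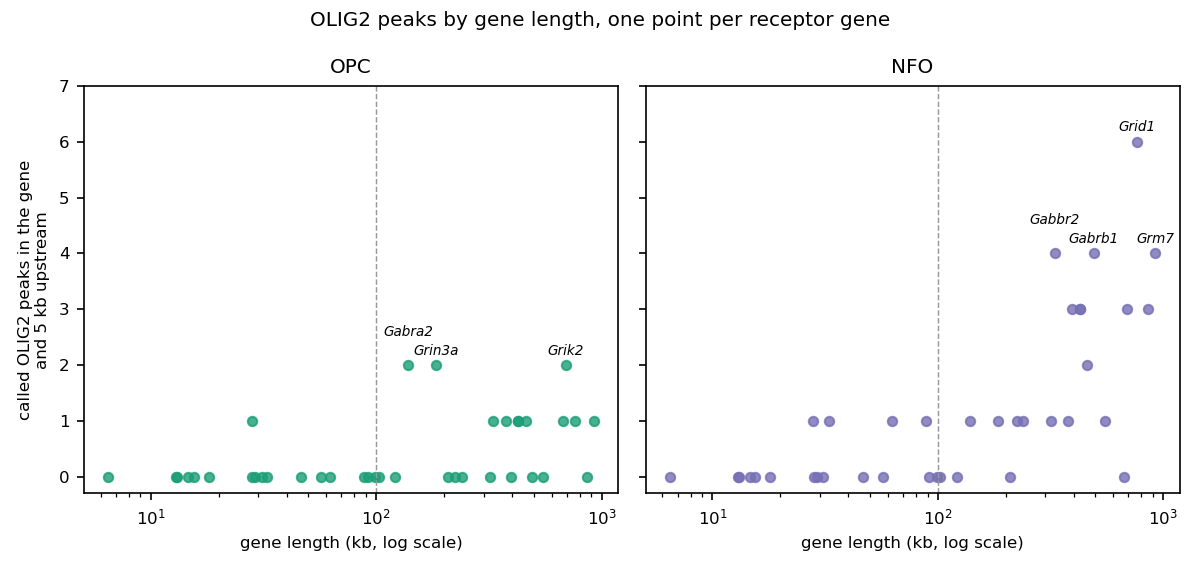
Each point is 1 receptor gene, with its length in kb on a log axis and the number of called OLIG2 peaks in the gene and 5 kb upstream in OPCs (left) and NFOs (right). The dashed line is at 100 kb; Grid1 has the most peaks, 6 in NFOs, and genes with 2 or more peaks are all longer than 100 kb.

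The 15 OLIG2 peaks of OPCs had a median of 8.53-fold and the 46 of NFOs one of 10.7-fold, next to 8.52-fold and 8.92-fold over all peaks of the 2 lists. In OPCs 13 summits lay in introns and in NFOs 40, and 9 and 37 were over 10 kb from the nearest TSS of the gene. In each stage 3 summits lay within 1 kb of a TSS. In OPCs 4 of the peaks overlapped an H3K4me3 peak of the same cells and 1 an H3K27me3 peak, and in NFOs 3 and 1. Corresponding shares over all OLIG2 peaks are not given here, so these places describe the peaks and not a trait of receptor genes. The most peaks were found in Grid1, with 1 in OPCs and 6 in NFOs, and Gabbr2, Gabrb1 and Grm7 had 4 each in NFOs.

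At 3 receptor genes the peaks of OPCs and NFOs overlapped, which is 27.3% of the 11 genes with peaks in both, next to 34.2% over all genes, and 2.83% of all genes had such a pair. In Grik4 the peak at chr9:42944301-42944443 had 61.3-fold in OPCs and ranked 17 among the 6566 peaks of that list. Its summit lay in a UTR exon, 129 bp downstream of a TSS and inside the H3K4me3 peaks of all 3 stages. The NFO peak over it, at chr9:42944249-42944484, had 14.2-fold and ranked 1752. In Gabra2, an alpha subunit of synaptic GABA-A receptors, the pair lay on the TSS. It had 10.8-fold in OPCs (chr5:71095062-71095291) and 14.2-fold in NFOs (chr5:71095063-71095298) and lay inside the H3K4me3 peaks of all 3 stages and on the H3K27me3 peak that made the gene bivalent in NSCs. In Grin3a the pair was intronic, with the OPC summit 22097 bp from the nearest TSS, with 9.34-fold in OPCs and 9.98-fold in NFOs. Both peaks of this pair overlapped a called H3K4me3 peak of OPCs.

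The strongest NFO peak was in Grm8, at chr6:27310444-27310679, with 31.3-fold and rank 92 of 14076. It was intronic, 815563 bp from the nearest TSS of the gene. Grm3 had an intronic NFO peak of 15.8-fold and Grid1 and Grik1 one each of 15.2-fold, and Gria4 had an OPC peak of 14.7-fold with its summit 23 bp upstream of a TSS, inside the H3K4me3 peak of OPCs. Upstream of Grin2b an NFO peak of 8.33-fold lay 2084 bp from the nearest TSS, within the H3K27me3 peak of 1699 bp of NFOs, and also overlapped a called H3K27me3 peak of OPCs beyond the domain given above. It was the only OLIG2 peak of NFOs in a receptor gene that overlapped an NFO H3K27me3 peak. The NFO peak upstream of Grik5 lay 470 bp from a TSS of Zfp574. The remaining genes with a called peak were Grin1, Gabra4, Gabrg3, Gabrr2, Gria1, Grik2, Grik3, Grin2a and Grm5, with from 1 to 3 peaks per stage and from 5.27-fold to 13.7-fold.

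**Figure D4:**
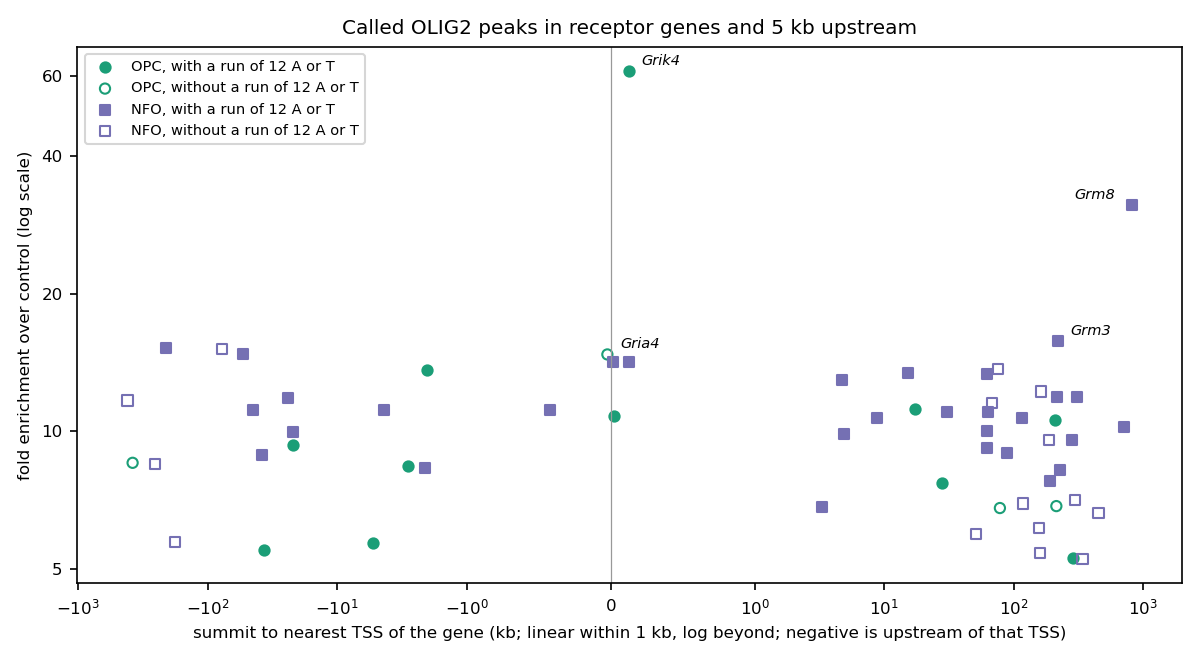
Each point is a called OLIG2 peak in a receptor gene or 5 kb upstream, with the distance from its summit to the nearest TSS of the gene in kb and its fold enrichment on a log scale, in OPCs (circles) and NFOs (squares). Filled points hold a run of at least 12 A or 12 T, as do the 61.3-fold peak of Grik4 and the 31.3-fold peak of Grm8.

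Sequences are shown for some of these peaks and for 1 histone peak, picked because they hold a long run of A or T. The choice of genes did not use this feature. Not all OLIG2 peaks at receptor genes held a run of at least 12, but 11 of 15 in OPCs and 31 of 46 in NFOs did. The longest run was 4 bases in the 14.7-fold OPC peak of Gria4 and 8 in the 15.2-fold NFO peak of Grik1. The sequences were read from the reference genome (GRCm38.p6, the mm10 build) on the plus strand. Capitals mark runs of at least 12 A or 12 T and E-boxes, the latter being the 6-letter stretches that begin with CA and end with TG. At Grik4, where the peak overlaps a UTR, and at Gabra2, where it lies on a noncoding exon at the TSS, only the 30 bases around the run are given, chr9:42944396-42944425 and chr5:71095097-71095126. The others are the OPC peak of Grin3a (chr4:49741232-49741461), the NFO peak of Grm8 (chr6:27310444-27310679), the NFO peak of Grin2b (chr6:136175477-136175712), and the NSC H3K27me3 peak of Grik1 (chr16:88288162-88288460).
Grik4, OLIG2: ttttcccTTTTTTTTTTTTTTTTctttttt
Gabra2, OLIG2: acaccctcAAAAAAAAAAAAAAAtagaaaa
Grin3a, OLIG2: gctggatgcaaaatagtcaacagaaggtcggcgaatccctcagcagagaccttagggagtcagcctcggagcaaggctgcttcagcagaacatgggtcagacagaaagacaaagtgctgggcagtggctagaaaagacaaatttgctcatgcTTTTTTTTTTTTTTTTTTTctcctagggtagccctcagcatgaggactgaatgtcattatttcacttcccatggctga
Grm8, OLIG2: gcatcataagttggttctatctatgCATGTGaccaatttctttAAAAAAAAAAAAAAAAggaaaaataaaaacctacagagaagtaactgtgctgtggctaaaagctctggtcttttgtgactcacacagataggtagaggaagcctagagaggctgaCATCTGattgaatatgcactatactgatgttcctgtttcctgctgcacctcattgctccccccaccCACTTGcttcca
Grin2b, OLIG2: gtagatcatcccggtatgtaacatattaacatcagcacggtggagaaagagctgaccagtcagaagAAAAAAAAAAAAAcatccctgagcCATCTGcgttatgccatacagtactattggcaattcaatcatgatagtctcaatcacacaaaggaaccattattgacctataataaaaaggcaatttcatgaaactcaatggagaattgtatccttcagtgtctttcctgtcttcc
Grik1, H3K27me3: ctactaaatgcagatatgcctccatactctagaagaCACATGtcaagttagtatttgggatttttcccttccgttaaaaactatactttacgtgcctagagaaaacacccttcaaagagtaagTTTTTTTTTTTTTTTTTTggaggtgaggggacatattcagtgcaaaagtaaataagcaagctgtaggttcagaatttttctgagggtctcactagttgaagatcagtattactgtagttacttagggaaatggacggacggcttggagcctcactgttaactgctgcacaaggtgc

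A run of at least 12 A or 12 T was present in 11 of the 15 OLIG2 peaks of OPCs at receptor genes (73.3%, 95% exact binomial interval 44.9 to 92.2) and in 31 of the 46 of NFOs (67.4%, 52.0 to 80.5). Over all called OLIG2 peaks the shares were 66.9% and 67.4%. Windows of the same width placed 1 kb to either side of those peaks held such a run in 3.49% in OPCs and 3.57% in NFOs, so the runs were a feature of the OLIG2 lists as a whole and not of receptor genes. The narrow H3K27me3 peaks of NSCs had it too. Of those under 500 bp, 6 of 8 at receptor genes and 88.4% of all held a run, and 2.55% of the windows 1 kb away. Those of Gabra2, Grik1, Grik2, Grin2a and Grin3b were among them. In OPCs 1 of 8 such H3K27me3 peaks at receptor genes and 6.28% of all held one, and in NFOs 0 of 2 and 2.48%, with 3.18% and 3.39% in the windows. The intervals cover counting error only.

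An E-box was found in 11 of the 15 OPC peaks and 38 of the 46 NFO peaks, or 73.3% and 82.6%. Over all called OLIG2 peaks the shares were 70.3% and 69.2%, and in the windows 1 kb away 70.6% and 72.2%. The peaks shared by both stages at Grik4 and Grin3a held none, and that of Gabra2 held 4. A match is a description of the letters and not of binding. The study's methods name the DNA SMART ChIP-Seq Kit for the OLIG2 libraries, which adds a tail of a single repeated base to the DNA fragments. The part of the runs in the calls at receptor genes was not tested.

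**Figure D5:**
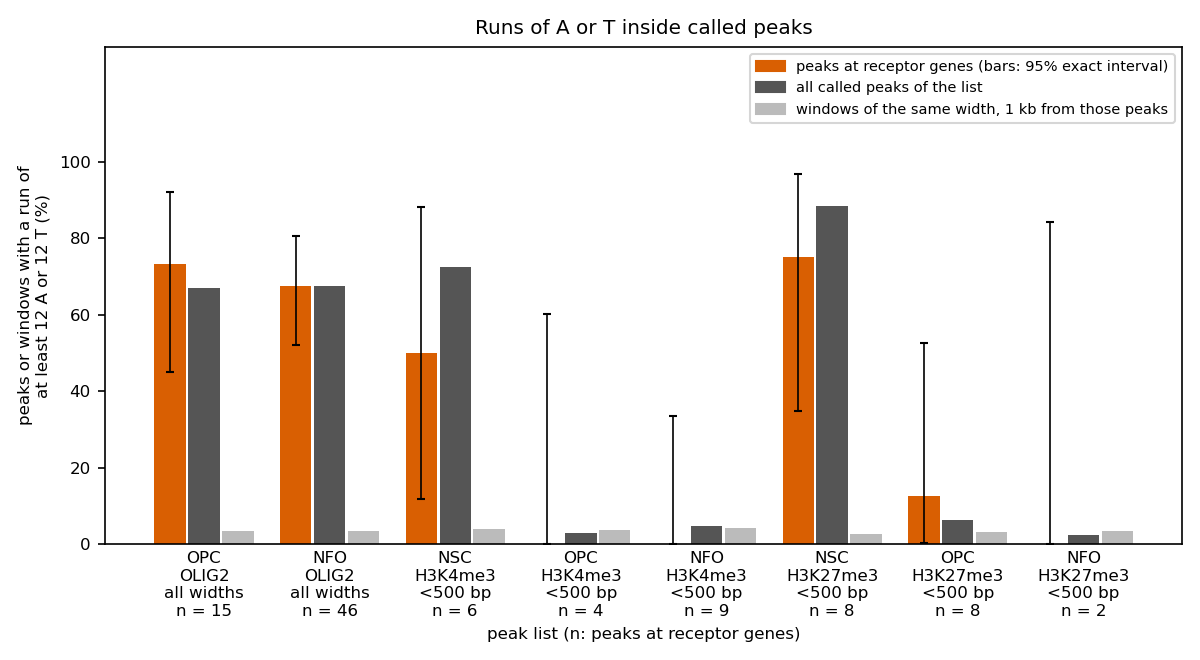
Bars give the percentage with a run of at least 12 A or 12 T among the peaks at receptor genes (orange, with the 95% exact interval and their number under each list), all called peaks of the same list and width class (dark grey) and windows of the same width 1 kb away (light grey). Histone peaks are those under 500 bp. The OLIG2 peaks and the narrow NSC peaks stand far above their windows, with 66.9% of all OPC OLIG2 peaks against 3.49%, and the narrow OPC and NFO histone peaks do not. Only runs inside a peak are counted, so a peak that stops at the edge of a run counts as without one.

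Without the OLIG2 peaks that hold a run, 4 receptor genes had a peak in OPCs, 10 in NFOs and 2 in both, and 0 had overlapping peaks, and the shares of all genes were 5.58%, 9.91%, 1.64% and 0.346%. Without the narrow histone peaks that hold one, 4 receptor genes had H3K27me3 in NSCs, and 0 were bivalent there, where the shares of all genes were 4.64% and 2.16%. The peaks of these 4 also held runs. The peak shared by Gabra4 and Gabrb1 held one of 11 and that of Gabrd one of 10, both under the cut. The 675 bp peak of Gabbr1 held one of 19 and was too wide to be left out. Gabra2, Grik1, Grik2 and Grin2a were then K4 only in NSCs and Grin3b had no peak. In OPCs Gabbr1 alone changed state, from mixed to K4 only. Only peaks that contain a run were left out. The OPC H3K27me3 peaks of Grin1 and Grin3b began at the base after a run held by an NSC peak, and that of Grm8 ended just before one. These peaks stayed in, and the part of such runs in the mixed states of Grin1, Grin3b and Grm8 was not tested. The H3K27me3 domains of Grin2b, Grm3, Grm6 and Grin2c in OPCs and NFOs held no narrow peak that was left out, and the states of these genes were the same.

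The genes that work with the receptors were taken as 57 genes in 4 lists, 12 of glutamate transport and metabolism, 9 of GABA transport and metabolism, 18 auxiliary subunits and 18 postsynaptic scaffolds. H3K4me3 was called at 48 of them in NSCs, 49 in OPCs and 29 in NFOs, next to 62.7%, 60.5% and 38.6% of all genes. H3K27me3 was called at 10, 13 and 10, next to 9.5%, 12.8% and 7.67%. OLIG2 was called at 14 in OPCs and 26 in NFOs, next to 15% and 25%. The length of these genes was not taken into account. Several of these genes had wide H3K27me3 domains in NSCs, where no receptor gene had one of 1 kb. Slc17a7 and Slc17a6, which load glutamate into synaptic vesicles, had domains of 6148 bp and 5012 bp in NSCs, and that of Slc17a6 was 13978 bp in OPCs and 13472 bp in NFOs. Slc32a1, the vesicular GABA transporter, had 5920 bp in NSCs and 9795 bp in OPCs, and Gad2, which makes GABA, 4599 bp in NSCs and 6289 bp in NFOs. Both were K27 only in NFOs. The AMPA receptor auxiliary genes Cnih3 and Gsg1l passed from K4 only in NSCs through mixed in OPCs to K27 only in NFOs. Gad1, the other enzyme of GABA synthesis, was K4 only at all stages and held an overlapping pair of OLIG2 peaks of 62.7-fold in OPCs and 72.4-fold in NFOs. Overlapping pairs were also present at Cacng7, an auxiliary subunit, and Gphn, the gephyrin scaffold of GABA-A receptors.

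In the RIP-Seq lists, which the labels place in NFOs and the study's methods in NSCs, 0 of the 38 receptor genes had a listed site for OLIG2 or for the IgG control. Listed sites fell on transcripts of 2.53% of protein-coding genes for OLIG2 and 2.55% for IgG.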

How the data were processed

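The authors mapped ChIP-Seq reads to mm10 with Bowtie2, used MACS2 in broad mode for the histone marks and SPP for OLIG2, and removed blacklisted regions. The deposited lists give each peak's fold enrichment over control, which is a ratio, and the −log10 of its FDR. The deposited histone lists also hold a −log10 p and the OLIG2 lists a summit position. Read depth per library is unknown, since the lists hold peaks and not reads. The deposited RIP-Seq lists, made by the authors with ASPeak, hold a tag count, a p-value and an RPKM per site, and only their positions were used here.

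Here, peaks past the FDR of 0.05 and fold enrichment of 3.5 (histones) or 5 (OLIG2) were assigned to protein-coding genes of GENCODE M21 within 2 kb of any TSS (histones) or in the gene and 5 kb upstream (OLIG2, any overlap). H3K4me3 and H3K27me3 peaks that overlapped by at least 1 bp were merged into bivalent domains. Sequences were read with pysam 0.24.0, and figures drawn with Matplotlib 3.10.9. The assignment was tested on simulated data, and all of 200 simulated states were recovered. Samples were grouped by cell type and target of their titles, with 1 library per group, so results are counts beside the share of all protein-coding genes, with no test. Members, gene lists and the rule for named genes were chosen with earlier results of these data known. Named are the members whose state differs between stages, that are bivalent or K27 only at any stage, or that hold an OLIG2 peak, and the others together. Alternatives changed thresholds, windows and overlaps, and the 2 without runs of A or T were chosen after seeing the data. The 3 input libraries were not used here.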

Additional observations from a re-analysis of the deposited data

How the results depend on the processing

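No paired analysis was possible because each group held 1 library and no result came from a test. With 1 library per group nothing could be left out in turn. Counts within 1.5 times the reported one are not listed, the cause of the changes was not tested, and read depth, which is unknown, limits every absent peak. At a fold enrichment above 5, H3K4me3 was called at 18 receptor genes in OPCs and 9 in NFOs, and H3K27me3 at 3, 6 and 1 in the order of the stages. The states were then 0 mixed, 1 K27 only and 16 none in NSCs, 1 bivalent, 0 mixed, 5 K27 only and 15 none in OPCs, and 8 K4 only, 1 bivalent, 0 mixed, 0 K27 only and 29 none in NFOs, and 11 genes changed state from NSCs to OPCs. With all listed histone peaks, NSCs had 5 bivalent, 7 mixed and 1 K27 only genes, and NFOs 9 genes with H3K27me3 and 5 K27 only. Within 1 kb of a TSS, H3K27me3 was called at 5 genes in NSCs and 7 in OPCs, with 2 mixed and 1 K27 only in NSCs, 2 mixed in OPCs and 1 bivalent in NFOs. With 1 TSS per gene 1 was bivalent in NFOs. With H3K27me3 peaks of at least 1 kb, 0 genes had the mark in NSCs and 2 in OPCs, so that 0 were bivalent, 0 mixed and 0 K27 only in NSCs, and 0 mixed, 0 K27 only and 8 none in OPCs. Under that setting 1 was bivalent in NFOs and 6 changed state from NSCs to OPCs. With any bivalent domain counted as bivalent, 7 genes were bivalent and 0 mixed in NSCs, and 3 bivalent and 0 mixed in NFOs. At an OLIG2 fold enrichment above 10, 5 genes had a peak in OPCs and 4 in both stages. In the 5 kb upstream and first 5 kb of the gene, 3 had one in OPCs, 7 in NFOs and 2 in both. Without OLIG2 peaks that hold a run of 12 A or T, chosen after seeing the data, 4 had one in OPCs, 10 in NFOs and 2 in both, and 0 an overlapping pair. Without narrow histone peaks that hold one, also chosen after seeing the data, 4 had H3K27me3 in NSCs, 0 were bivalent and 1 K27 only. With all listed peaks, 16 of the 57 related genes had H3K27me3 in NSCs. A stricter RIP-Seq tag ratio was not run, since no receptor gene had a listed site.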

Other observations

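The deposited lists hold several peaks at receptor genes just under the thresholds, which bear on genes counted as without a mark. In NFOs Gabra4 had a listed H3K4me3 peak of 3.31-fold, Grm2 a listed H3K27me3 peak of 3.39-fold and 790 bp, and Gabra5 one of 3.38-fold and 501 bp. In NSCs Grm4 had a listed H3K27me3 peak of 2134 bp and 3.18-fold upstream, and Grin1 one of 286 bp and 3.29-fold.

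The H3K27me3 peak of Grm8 in OPCs and an H3K4me3 peak of NSCs covered nearly the same bases, chr6:28131800-28132012 with 7.07-fold and chr6:28131801-28132080 with 4.20-fold. The NSC peak held a run of 13 A or T, and the OPC peak ended before that run. At Grin2a the H3K4me3 and H3K27me3 peaks of NFOs upstream of the TSS likewise began at the same base, with widths of 195 bp and 181 bp and 5.59-fold and 5.38-fold. At Grik1 the narrow H3K4me3 peaks of OPCs and NFOs both ended at chr16:88288286, within the first bases of the run shown above for the NSC H3K27me3 peak. These peaks are given as values and were not tested.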
